A study of Mus musculus with 4 samples.

Results

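Lrg1, Lcn2, Cp, C3, Cfb, Pigr, Saa3 and Fgb are genes of secreted or shed proteins of the acute-phase response, chosen by symbol from the 32285 genes of the count files, and all 8 were found. They were chosen with their measured levels known, so the levels and differences given for them are descriptions and carry no test. The islets were those of C57BL/6 mice carrying the genotype Malat1-/- (called Malat1-null here) and of wild-type C57BL/6 mice, and both groups had been exposed to TCDD, a dioxin and ligand of the aryl hydrocarbon receptor (AhR). Islets were cultured, dispersed into single cells and sequenced with the 10x Genomics 3′ method, 1 library per group, and the 2 DMSO (solvent) samples among the 4 of the series were not analysed here, which leaves the effect of TCDD unmeasured. The dose and time of TCDD, the age and sex of the mice, the way Malat1 was deleted and whether a library pooled several mice are not given in the sources used here. Library and genotype cannot be told apart in this design.

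Acute-phase proteins are made in large amounts, mainly by the liver, when interleukin-6, interleukin-1 and related cytokines signal through STAT3, C/EBP and NF-kB factors. Epithelia and macrophages make many of them locally, and in the pancreas the duct epithelium is a known source of such defence proteins. Lcn2 protein (lipocalin 2) binds bacterial siderophores and so withholds iron, ceruloplasmin (Cp) oxidises iron and carries copper, C3 and Cfb (factor B) form the alternative complement pathway, Pigr carries polymeric immunoglobulin across epithelia, Lrg1 modifies TGF-beta signalling in vessels, Saa3 is a serum amyloid A protein made outside the liver, and Fgb is the beta chain of fibrinogen.

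The Malat1-null library held 134950186 UMIs (unique molecules) and 2905 usable cells, with a median of 37812 UMIs per cell, and the wild-type library 81872519 UMIs and 2076 cells, with a median of 27652. Labels give the cell type as beta cell, but clusters with markers of 12 classes were present. Beta-like cells numbered 1798 in Malat1-null and 919 in wild type, ductal-like cells 19 and 132, acinar-like cells 42 and 265, mesenchymal-like cells 17 and 25, macrophage-like cells 41 and 14, PP-like cells 15 and 25, and 382 and 92 cells stayed unnamed. In 2 classes the largest cluster was not the same in both libraries: of the beta-like cells, the cluster led by Slc2a2 and Ppp1r1a held 528 in Malat1-null and 76 in wild type and that led by Pdyn 122 and 311, and of the alpha-like cells 1 cluster held 70 and 3 and another 3 and 25. Malat1 stood at 0.271 CPM (UMIs scaled to a common library total, before the further scaling used below) in Malat1-null beta-like cells and 9708 CPM in wild-type ones, as the labels say. The AhR target Cyp1a1 was high in endothelial-like cells, with 4618 and 4963 CPM, and was 0.573 and 0.174 CPM, unscaled, in beta-like cells. The libraries shared 1 cell barcode.

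Levels of these genes are plotted by class and library. Lcn2 and Cp were ductal, and C3 was mesenchymal, macrophage and ductal. Cfb had its highest levels in the same classes as C3, but 0 UMIs in wild-type mesenchymal-like cells. Beta-like cells, at lower levels, held 70.2% of the Cfb UMIs in Malat1-null and 68.4% in wild type. Pigr was in beta-like, ductal-like and PP-like cells, and Fgb in PP-like and, in few cells, alpha-like and delta-like cells. Lrg1 was in acinar-like, alpha-like, ductal-like, endothelial-like and beta-like cells of wild type. Lymphoid classes held little: T- or NK-like and plasma-cell-like cells together had at most 1 UMI of a gene in a library. B-cell-like cells had 10 UMIs of Pigr in Malat1-null (8.74 CPM) and 8 in wild type (5.74 CPM). Levels are CPM scaled with TMM factors within a class, so different classes are not scaled to each other. Intervals are exact, at 95%, and cover counting error only. Many UMIs came from few cells, and UMIs of 1 cell are not independent, so these intervals are too narrow.

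**Figure D1:**
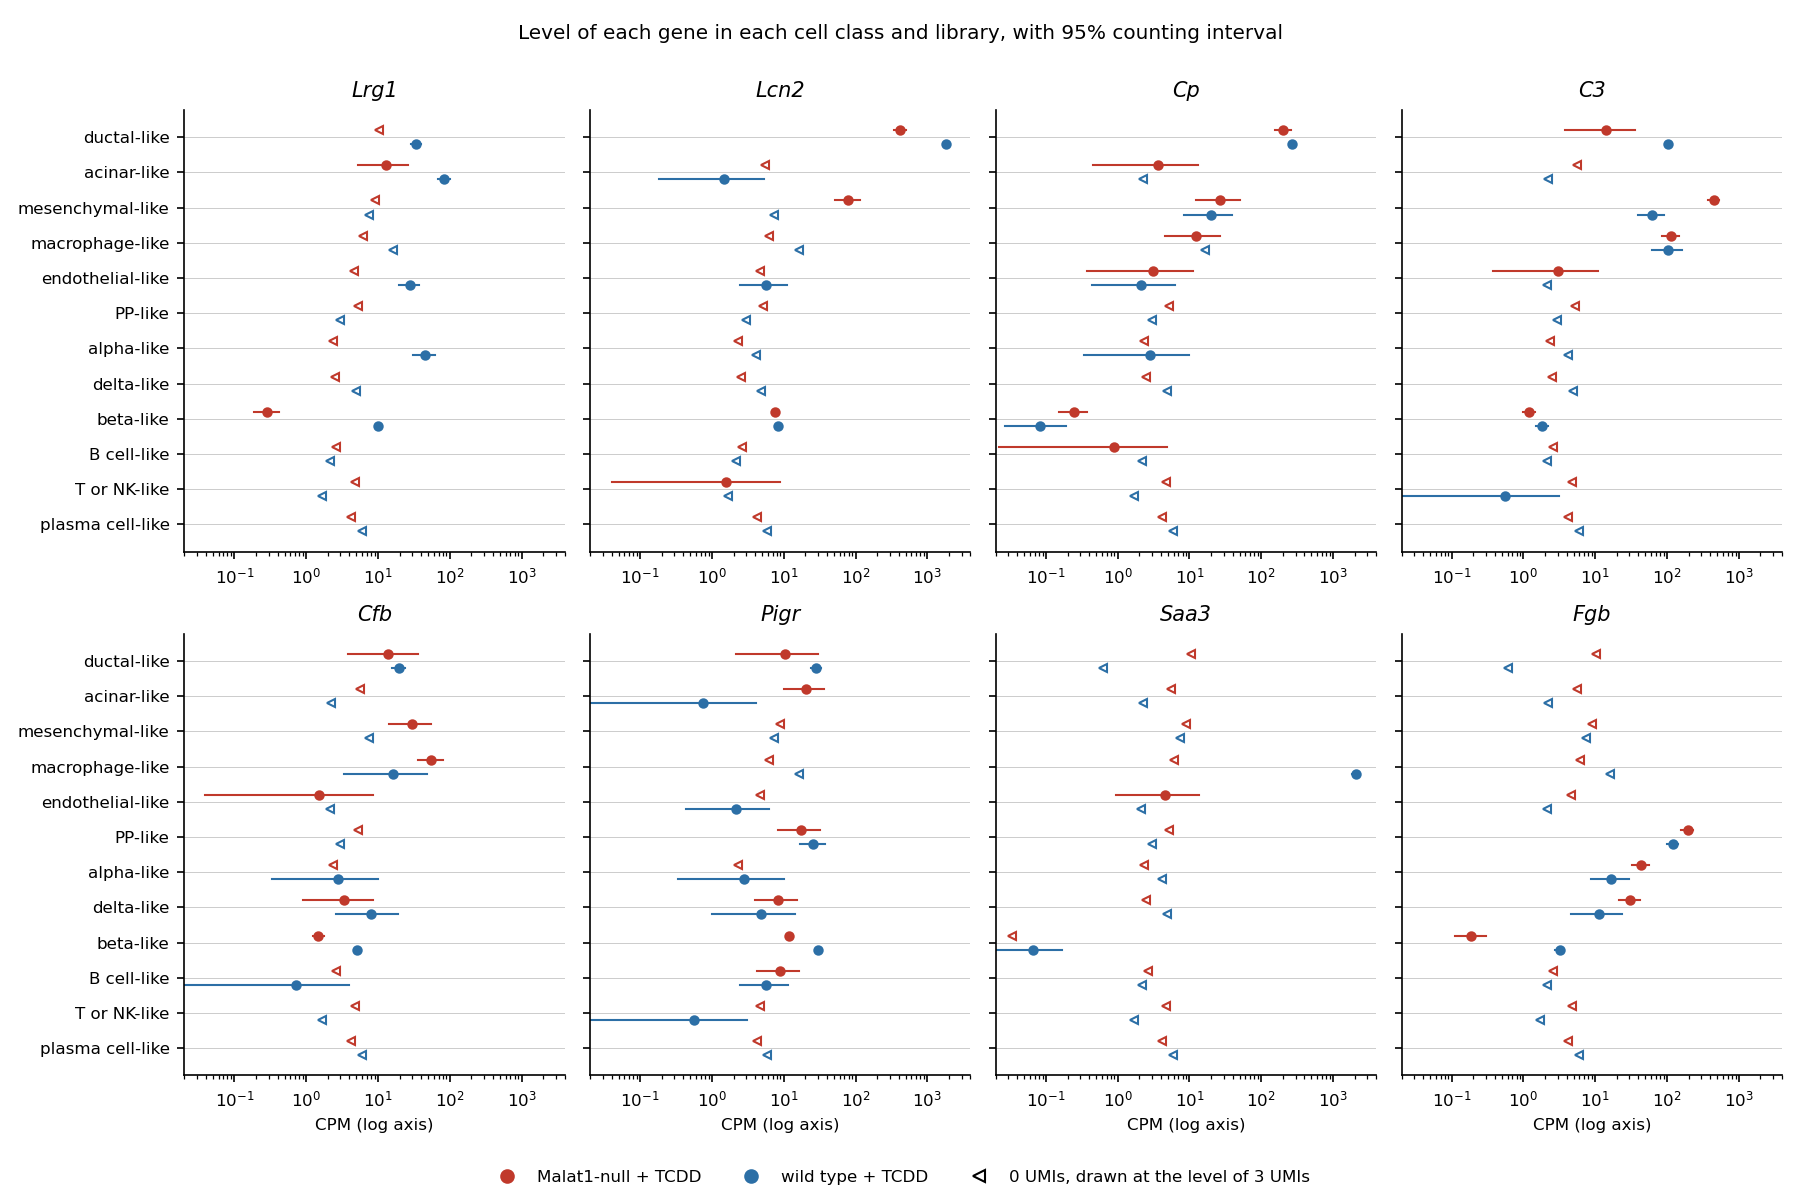
CPM of each of the 8 genes (log axis) in 12 cell classes, with the Malat1-null library drawn above wild type in each class, points for the level and bars for the 95% counting interval; open triangles stand for 0 UMIs, drawn at the level 3 UMIs would have. Lcn2 reached 417 and 1800 CPM in ductal-like cells, and Saa3 in wild-type macrophage-like cells (2069 CPM) came from 1 cell.

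To set these genes beside all others, a gene was counted as 2-fold higher or lower if its level in either library was 50 CPM or more, the libraries together had 50 UMIs of it or more, and its ratio passed 2-fold with a counting interval past 1.5-fold. In beta-like cells 0 of the 8 genes reached 50 CPM, so none could be counted; of the 1659 genes that could, 0.422% were higher and 1.21% lower in Malat1-null. With a minimum of 20 CPM, Pigr alone could be counted and was lower (0.350% of 4001 genes were higher and 0.950% lower). With no CPM minimum, 6 of the 8 could be counted, and Lrg1, Cfb, Pigr and Fgb were lower (1.19% of 12989 genes were higher and 2.15% lower).

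In ductal-like cells Lcn2 and C3 were lower among 3 of the 8 genes that could be counted (1.46% of 3360 genes were higher and 1.31% lower). Elsewhere C3 was higher in mesenchymal-like cells (4.67% of 2353 genes were higher and 5.40% lower), Saa3, in 1 cell, was lower in macrophage-like cells while C3 was not 2-fold apart (5.32% of 1842 genes were higher and 1.57% lower), and Lrg1 was lower in acinar-like cells (4.08% of 1053 genes were higher and 24.7% lower). Fgb in PP-like cells could be counted and was not 2-fold apart (0.616% of 1947 genes were higher and 0.924% lower). The genes were chosen with these values known, so nothing is read from the counts.

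**Figure D2:**
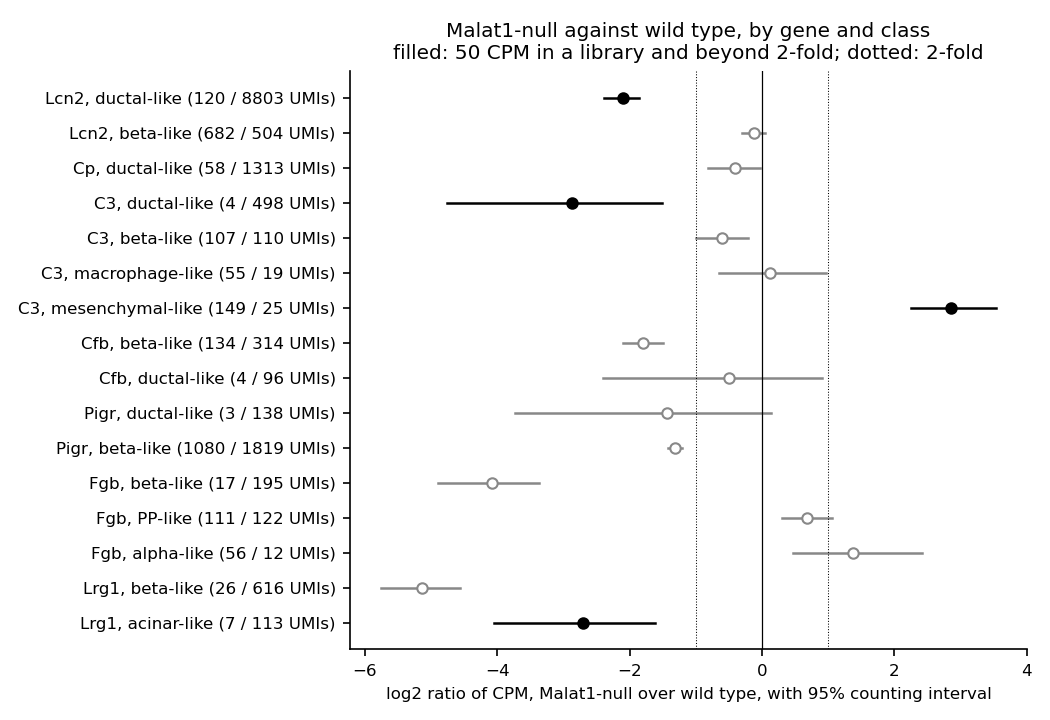
Log2 of the ratio of CPM, Malat1-null over wild type (horizontal axis), with its 95% counting interval, for each gene and class with UMIs in both libraries and at least 50 UMIs in all; filled points met the rule of 50 CPM and 2-fold, and dotted lines mark 2-fold. C3 lies on the right in mesenchymal-like cells (7.27-fold higher) and on the left in ductal-like cells (7.33-fold lower).

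Lcn2 (ENSMUSG00000026822; mm10 chromosome 2, 32384633 to 32388252, minus strand) was a gene of ductal-like cells. These cells had 120 UMIs in Malat1-null (417 CPM, 346 to 498) and 8803 UMIs in wild type (1800 CPM, 1763 to 1838). The Malat1-null level was 4.32-fold lower (3.61 to 5.22). Lcn2 was found in 9 of 19 Malat1-null ductal-like cells and 110 of 132 wild-type ones, and the highest cell held 29 UMIs in Malat1-null and 767 in wild type. With every cell thinned to 5000 UMIs, 46.7% of 15 Malat1-null cells (21.3 to 73.4%) and 71.5% of 130 wild-type cells (63.0 to 79.1%) still had one, so the intervals of the shares overlapped while those of the levels did not. T- or NK-like cells, which should lack Lcn2, had 1 positive cell of 156 in Malat1-null and 0 of 295 in wild type, which allows a share of up to 1.02%. Their median depths were 3388.5 and 5107 UMIs, against 13689 and 25808 UMIs in ductal-like cells.

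The ductal-like cells of both libraries carried the defining duct markers. Krt19 stood at 754 and 831 CPM and Sox9 at 243 and 244 CPM in Malat1-null and wild type, while osteopontin (Spp1) stood at 1869 and 8810 CPM and Tspan8 at 13.9 and 136 CPM. In wild type the 93 cells with at least 5 Lcn2 UMIs had 12341 CPM of the 9 summed duct markers, against 3433 CPM in ductal-like cells with no Lcn2. The part of these marker and depth differences in the Lcn2 result was not tested.

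Outside the ducts Lcn2 was sparse. Mesenchymal-like cells had 26 UMIs in Malat1-null (78.0 CPM), 25 of them in 1 cell, and 0 UMIs in wild type. Beta-like cells had 682 UMIs in 26 of 1798 Malat1-null cells (7.55 CPM) and 504 UMIs in 45 of 919 wild-type cells (8.26 CPM), and 2 Malat1-null cells held 220 and 156 of those UMIs. The ratio was 0.915 (0.814 to 1.03), but its direction turned with the clustering: the log2 ratio was -0.13 here, 1.56 at a minimum of 10000 UMIs and 2.30 within the beta-like cluster led by Glul. Ductal-like cells held 14.5% of the Lcn2 UMIs in Malat1-null and 93.1% in wild type.

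Cp (ENSMUSG00000003617; chromosome 3, 19957054 to 20009145, plus strand) was the gene most confined to ductal-like cells, which held 58.0% of its UMIs in Malat1-null and 98.6% in wild type. It overlaps Hps3, which lies on the opposite strand. Ductal-like levels were 201 CPM (153 to 260, 58 UMIs) in Malat1-null and 269 CPM (254 to 283, 1313 UMIs) in wild type. The ratio was 0.750 (0.567 to 0.976), under the 2-fold limit, and the 2 levels' own intervals overlapped. Cp was found in 15 of 19 and 113 of 132 ductal-like cells. Unlike Lcn2, Cp was about as widespread in the Malat1-null ducts as in wild type: 78.9% and 85.6% of cells. Mesenchymal-like cells had 27.0 and 19.7 CPM from 9 and 8 UMIs, macrophage-like cells 12.3 CPM from 6 UMIs and 0 CPM, and beta-like cells 0.244 and 0.0819 CPM.

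Across the 24 class-by-library sums Lcn2 and Cp had nearly the same pattern, with a Pearson r of 0.93 on log2(CPM + 10), and Aldh1a1, a retinaldehyde dehydrogenase, was most like both (0.94 and 0.95). These sums share libraries and depth, and r here rests on the ductal-like sums. In wild-type ductal-like cells, 98 cells held both genes, which is 89.1% of the Lcn2-positive and 86.7% of the Cp-positive cells, where Cp was found in 85.6% and Lcn2 in 83.3% of all those cells. The promoter windows of these genes, from 250 bases before to 50 after the RefSeq start (RefSeq on GRCm38.p6), were read for letters of acute-phase factors. The pair is shown since their patterns were the most alike among the 8 genes; capitals mark C/EBP letters (TTGCNNAA, either strand), which the Lcn2 window holds once, 216 bases before the start, and the Cp window does not hold.
Lcn2 (chr2:32387690-32387989, minus strand): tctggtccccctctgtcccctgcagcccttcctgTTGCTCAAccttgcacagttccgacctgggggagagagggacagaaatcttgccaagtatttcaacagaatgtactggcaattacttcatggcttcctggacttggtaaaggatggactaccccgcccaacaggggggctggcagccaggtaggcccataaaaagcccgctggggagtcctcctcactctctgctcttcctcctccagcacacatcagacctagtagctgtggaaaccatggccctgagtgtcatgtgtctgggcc
Cp (chr3:19956804-19957103, plus strand): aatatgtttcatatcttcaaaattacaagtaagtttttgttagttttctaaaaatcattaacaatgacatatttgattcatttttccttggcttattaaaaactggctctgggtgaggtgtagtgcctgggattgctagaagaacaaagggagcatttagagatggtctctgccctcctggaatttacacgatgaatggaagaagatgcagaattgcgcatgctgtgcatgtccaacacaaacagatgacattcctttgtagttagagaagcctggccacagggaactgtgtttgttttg
Of 32851 promoter windows of the same length, 10.8% held the C/EBP letters, 8.30% STAT letters (TTCNNNGAA), 20.7% NF-kB letters (GGGA, any 4 bases, then CC) and 32.4% the AhR core (GCGTG), each counted on either strand. Of the 8 genes 7 had a window, the exception being Cfb; 4 held C/EBP letters, 2 STAT letters, 2 NF-kB letters and 0 the AhR core. These matches describe letters only. Cp had 2 windows, and only that nearest the annotated start of the gene was read.

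C3 (ENSMUSG00000024164; chromosome 17, 57203970 to 57228136, minus strand), the central complement protein, had its highest level in Malat1-null mesenchymal-like cells. They had 149 UMIs (447 CPM, 378 to 525) in Malat1-null and 25 UMIs (61.5 CPM, 39.8 to 90.8) in wild type, 7.27-fold higher in Malat1-null (4.74 to 11.6). All 149 UMIs came from 7 of 17 Malat1-null cells and the 25 from 3 of 25 wild-type cells. Without the highest cell of each library the levels were 300 and 19.7 CPM. The mesenchymal-like cells of the libraries were not alike in their markers: the collagen gene Col1a1 stood at 36.0 and 760 CPM and decorin (Dcn) at 819 and 204 CPM in Malat1-null and wild type. What part this had in the C3 result was not tested.

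Ductal-like cells showed the opposite order for C3. They had 4 UMIs in Malat1-null (13.9 CPM, 3.79 to 35.6) and 498 UMIs in wild type (102 CPM, 93.1 to 111), 7.33-fold lower in Malat1-null (2.84 to 27.0). C3 was found in 3 of 19 Malat1-null and 80 of 132 wild-type ductal-like cells. Macrophage-like cells had 113 CPM (85.0 to 147, 9 of 41 cells) and 103 CPM (62.3 to 162, 2 of 14 cells), a ratio of 1.09 (0.637 to 1.95) whose log2 value of 0.10 turned to -0.26 with total-count scaling. Without the highest cell the macrophage-like levels were 71.8 and 21.8 CPM. Malat1-null macrophage-like cells also held 111360 CPM of Ins2, unscaled, against 722 CPM in wild type, and the part of this in their C3 level was not tested. For beta-like cells C3 was at 1.18 and 1.80 CPM, in 92 of 1798 and 73 of 919 cells, with no Malat1-null cell above 3 UMIs. The direction of that difference turned, with a log2 ratio of -0.60 here, 0.21 at a minimum of 10000 UMIs and 0.16 at Leiden resolution 2. Barcodes of 10 to 100 UMIs, taken as empty, had 331 and 410 CPM of C3, far above the beta-like level. T- or NK-like cells had 0 and 1 UMIs of C3. The RNA of the empty barcodes was not that of the cells: in Malat1-null, Malat1 stood at 1577 CPM there and 0.442 CPM in cells. Where it came from and its part in the beta-like values were not tested.

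The C3 window is shown because it held the most motif letters of the 7, 3 matches of NF-kB (197, 33 and 10 bases before the start) and 1 of C/EBP (45 bases before it), none overlapping another; capitals mark them.
C3 (chr17:57228087-57228386, minus strand): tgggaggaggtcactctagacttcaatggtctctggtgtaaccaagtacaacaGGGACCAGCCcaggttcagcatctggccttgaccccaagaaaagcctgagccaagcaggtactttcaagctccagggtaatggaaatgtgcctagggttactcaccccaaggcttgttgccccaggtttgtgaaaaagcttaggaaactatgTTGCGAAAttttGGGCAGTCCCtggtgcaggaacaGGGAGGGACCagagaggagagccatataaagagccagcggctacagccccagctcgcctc
C3 was most like the chemokine gene Cxcl1 and the prostaglandin synthase gene Ptgs2 across the 24 sums (r of 0.91 each), then Prdx1 (0.90), Pdlim4 and Gpc1 (0.87 each), and had an r of 0.82 with Cfb.

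Cfb (ENSMUSG00000090231; chromosome 17, 34856374 to 34862518, minus strand), the protease that C3b binds, overlaps the gene model Gm20547 on the same strand, so its counts are uncertain. Macrophage-like cells had 27 UMIs (55.4 CPM, 36.5 to 80.6) in Malat1-null and 3 UMIs (16.3 CPM, 3.37 to 47.7) in wild type. Cfb was found in 5 of 41 and 2 of 14 of these cells, and 1 cell held 17 of the 27 Malat1-null UMIs. Ins2 stood at 111360 and 722 CPM, unscaled, in macrophage-like cells, and the part of this in their Cfb level was not tested. Mesenchymal-like cells had 10 UMIs in 7 of 17 Malat1-null cells (30.0 CPM) and 0 in 25 wild-type cells. Ductal-like levels were 13.9 and 19.6 CPM, and their ratio of 0.708 had an interval of 0.189 to 1.87. In beta-like cells Cfb stood at 1.48 CPM (1.24 to 1.76, in 63 of 1798 cells) in Malat1-null and 5.15 CPM (4.59 to 5.75, in 86 of 919 cells) in wild type, 3.47-fold lower (2.82 to 4.28). The log2 ratio was -1.79 here, -0.60 at a minimum of 10000 UMIs and -1.04 without the mitochondrial limit. By cluster the levels were 2.67 and 9.79 CPM in the Pdyn-led cluster, 0.508 and 4.48 CPM in the Glul-led one (56 of 80 wild-type UMIs in 1 cell), 4.47 and 8.24 CPM in the Nfkbia-led one, and 0.363 and 0.396 CPM in the one led by Slc2a2 and Ppp1r1a. In wild type 14 beta-like cells with at least 5 UMIs had 2902 CPM of the summed duct markers, against 885 CPM in beta-like cells without Cfb, and the part of these markers was not tested. Empty barcodes had 22.3 and 24.8 CPM, more than beta-like cells of either library. In the order of levels, Malat1-null macrophage-like cells were followed by Malat1-null mesenchymal-like and wild-type ductal-like cells, and the intervals of neighbours overlapped. Vcam1, an adhesion molecule gene, was most like Cfb (r of 0.93), followed by Tmem37 (0.87).

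Pigr (ENSMUSG00000026417; chromosome 1, 130826684 to 130852249, plus strand), the polymeric immunoglobulin receptor, was the most widespread of the genes in beta-like cells. It was found in 408 of 1798 Malat1-null cells (22.7%) and 358 of 919 wild-type cells (39.0%). The levels were 12.0 CPM (11.3 to 12.7, 1080 UMIs) in Malat1-null and 29.8 CPM (28.5 to 31.2, 1819 UMIs) in wild type, 2.49-fold lower (2.31 to 2.69). With cells thinned to 5000 UMIs the shares were 4.56% (3.63 to 5.64%) of 1755 Malat1-null and 11.7% (9.69 to 14.0%) of 896 wild-type cells, so the order held at equal depth. In wild type 132 cells with at least 5 UMIs held 76.1% of the Pigr UMIs; in Malat1-null 61 such cells held 45.9%. T- or NK-like cells had 0 and 1 UMIs, at median depths of 3388.5 and 5107 UMIs, against 48124 and 60700 UMIs in beta-like cells. B-cell-like cells had 10 and 8 UMIs (8.74 and 5.74 CPM), in 7 of 230 and 8 of 157 cells. Empty barcodes had 12.7 CPM (8.48 to 18.2) and 12.6 CPM (8.46 to 18.1), so the Malat1-null beta-like level was not above them. Where the RNA of these barcodes came from and its part in the beta-like levels were not tested. Summed duct markers in beta-like cells were 359 and 877 CPM and acinar markers 28.9 and 199 CPM; all 9 duct markers were detected in Malat1-null and 7 in wild type. Their part in the Pigr result was not tested.

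The lower Pigr level was found in most beta-like clusters, as plotted. It was 19.5 and 39.3 CPM in the cluster led by Pdyn, 11.1 and 31.5 CPM in that led by Glul, 17.6 and 46.7 CPM in that led by Nfkbia, 8.15 and 24.6 CPM in that led by Slc2a2 and Ppp1r1a, and 11.9 and 38.0 CPM in that led by Gm26917. In the cluster led by the heat-shock gene Hspa1a the levels were 13.5 and 12.0 CPM, with a ratio of 1.13 (0.755 to 1.66). The cluster led by Slc2a2 and Tmsb15b2 had 5.88 CPM in 266 Malat1-null cells and 0 UMIs in 19 wild-type cells, whose median depth of 4284 UMIs was low. Outside beta-like cells, ductal-like cells had 10.4 CPM (2.15 to 30.5) and 28.2 CPM (23.7 to 33.3) and PP-like cells 17.4 and 25.7 CPM, with overlapping intervals in each pair. Without the highest cell of each library the ductal-like log2 ratio was -2.12, against -1.22 here. Jchain, which joins the polymeric immunoglobulin that Pigr carries, stood at 24211 and 10067 CPM in plasma-cell-like cells. Acinar-like cells had 20.3 CPM in Malat1-null, 9 of their 11 UMIs in 1 cell, and 0.744 CPM in wild type. Chmp4c and Gpx2 were most like Pigr, with low r of 0.69 and 0.67.

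**Figure D3:**
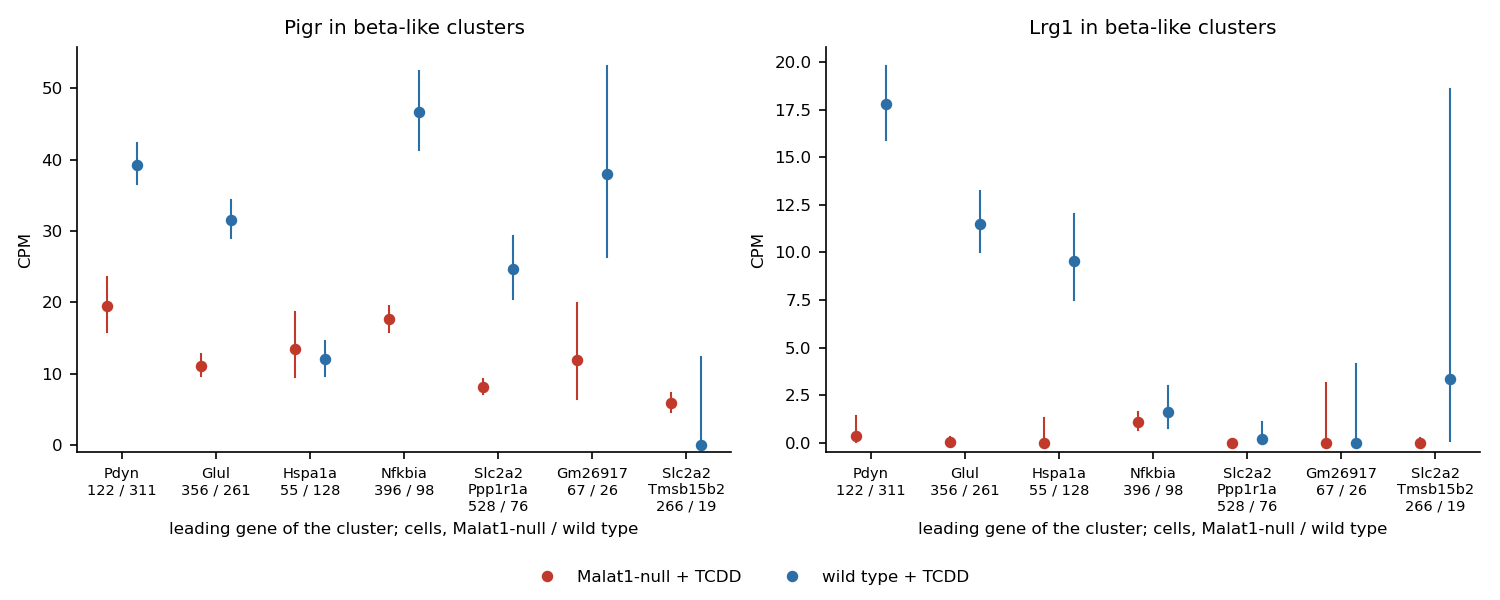
CPM of Pigr (left) and Lrg1 (right) in the 7 beta-like clusters with at least 10 cells in each library, Malat1-null left of wild type, with 95% counting intervals; each cluster is named by its leading gene with its number of cells in the libraries. Pigr is lower in Malat1-null in 5 clusters, and in the Hspa1a-led cluster the levels are 13.5 and 12.0 CPM.

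Lrg1 (ENSMUSG00000037095; chromosome 17, 56119678 to 56122001, minus strand), a leucine-rich glycoprotein, was almost absent from the Malat1-null library, with 36 UMIs over all its cells, against 1036 UMIs in wild type. Beta-like cells had 26 UMIs in 12 of 1798 Malat1-null cells (0.288 CPM, 0.188 to 0.422) and 616 UMIs in 82 of 919 wild-type cells (10.1 CPM, 9.31 to 10.9). That was 35.1-fold lower in Malat1-null (23.7 to 54.1). Empty barcodes had 0.873 CPM (0.106 to 3.15) in Malat1-null and 17.4 CPM (12.5 to 23.7) in wild type, the latter above the wild-type beta-like level. Where the RNA of these barcodes came from and its part in the beta-like levels were not tested. The wild-type UMIs were concentrated: 16 cells with at least 5 UMIs held 79.9% of them, and the highest cells held 183, 67 and 64, while the highest Malat1-null cell held 6. Without the highest cell the levels were 0.221 and 7.09 CPM. Thinned to 5000 UMIs, 0.114% (0.0138 to 0.411%) of Malat1-null and 2.90% (1.90 to 4.22%) of wild-type beta-like cells were positive. T- or NK-like cells, which should lack Lrg1, were positive in 0 of 156 and 0 of 295 cells, which allows up to 1.92% and 1.02%. Lars2 and Muc1 had the patterns most like Lrg1 over the 24 sums, with r of 0.76 and 0.68.

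Wild-type Lrg1 was in particular beta-like clusters. The Pdyn-led cluster held 55 of the 82 positive wild-type cells, and its level was 0.381 CPM in 122 Malat1-null cells and 17.8 CPM in 311 wild-type cells. The Glul-led cluster had 0.0508 and 11.5 CPM (183 of its 206 wild-type UMIs in 1 cell), and the Hspa1a-led cluster 0 and 9.55 CPM (64 of its 75 wild-type UMIs in 1 cell). The Nfkbia-led cluster, where 23 of the 26 Malat1-null UMIs lay, had 1.07 and 1.61 CPM with a ratio of 0.663 (0.304 to 1.56). The wild-type beta-like level moved with the cell filters: it was 6.80 CPM at a minimum of 5000 UMIs, 2.85 CPM at 10000 UMIs and 2.59 CPM without the mitochondrial limit, with Malat1-null at 0.284, 0.290 and 0.248 CPM. In the 16 cells with at least 5 UMIs the summed duct markers were 2359 CPM, against 859 CPM in wild-type beta-like cells without Lrg1, and their part was not tested. Of the 82 positive wild-type beta-like cells 42 also held Pigr (51.2%, against 39.0% of all wild-type beta-like cells) and 18 held Cfb (22.0%, against 9.36%). The 16 cells had a median of 73918 UMIs and wild-type beta-like cells without Lrg1 59954 UMIs, and the part of depth was not tested.

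In other classes Lrg1 was also low or at 0 in Malat1-null. Acinar-like cells had 7 UMIs (12.9 CPM, 5.20 to 26.6) and 113 UMIs (84.1 CPM, 69.3 to 101), 6.51-fold lower (3.06 to 16.6). With total counts in place of TMM the acinar-like log2 ratio was -1.65, against -2.61 here; in this class 24.7% of genes were lower and Ins2 stood at 132558 and 11067 CPM, unscaled. With this scaling the wild-type level in acinar-like cells was the highest of Lrg1, with no overlap with the next. The TMM factor was 0.718 there and 0.964 in wild-type alpha-like cells, so the order between classes depends on the scaling. In wild-type acinar-like cells 6 of 265 cells held 55.8% of the Lrg1 UMIs. Their median depth was 31831.5 UMIs, against 1578 UMIs in those without Lrg1. Alpha-like cells had 0 UMIs in 73 Malat1-null cells and 44.5 CPM (30.4 to 62.8) in 28 wild-type cells, where 2 cells held 93.8% of the UMIs and the level without the highest cell was 19.5 CPM. The alpha-like cells of the libraries lay mostly in different clusters. Ductal-like cells had 0 and 33.7 CPM (28.8 to 39.3) and endothelial-like cells 0 and 27.6 CPM (19.7 to 37.8), and the intervals of the alpha-like, ductal-like and endothelial-like levels of wild type overlapped. In wild-type ductal-like cells 34 of the 35 Lrg1-positive cells also held Lcn2, which 83.3% of all wild-type ductal-like cells held. The 9 cells with at least 5 Lrg1 UMIs had a median of 115669 UMIs, against 24243 UMIs in those without Lrg1. The part of depth in this overlap was not tested. Against a floor of 3 UMIs per library, Malat1-null was at least 3.24-fold lower in ductal-like and 6.01-fold lower in endothelial-like cells. Of the 24 sums, 17 held no Lrg1, among them wild-type T- or NK-like, B-cell-like, delta-like and PP-like cells, while empty barcodes had 0.873 and 17.4 CPM. The Lrg1 window held none of the 4 motifs, and it is shown beside that of Pigr, the gene of the 8 with the highest beta-like level in both libraries. Capitals in the Pigr window mark 1 match of NF-kB letters, 232 bases before the start, and 1 of STAT letters, which starts 39 bases after it.
Lrg1 (chr17:56121897-56122196, minus strand): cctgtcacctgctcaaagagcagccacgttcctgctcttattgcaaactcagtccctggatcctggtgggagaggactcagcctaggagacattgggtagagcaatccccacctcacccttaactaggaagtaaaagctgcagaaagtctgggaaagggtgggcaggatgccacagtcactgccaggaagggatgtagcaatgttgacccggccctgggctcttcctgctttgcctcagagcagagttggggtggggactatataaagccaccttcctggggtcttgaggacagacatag
Pigr (chr1:130826434-130826733, plus strand): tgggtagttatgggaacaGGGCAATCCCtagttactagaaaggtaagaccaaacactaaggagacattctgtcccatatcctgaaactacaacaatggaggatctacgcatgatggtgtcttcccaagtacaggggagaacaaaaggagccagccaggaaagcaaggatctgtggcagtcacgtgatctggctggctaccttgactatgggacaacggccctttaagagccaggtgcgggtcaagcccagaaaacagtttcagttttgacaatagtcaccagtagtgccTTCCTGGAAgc

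**Figure D4:**
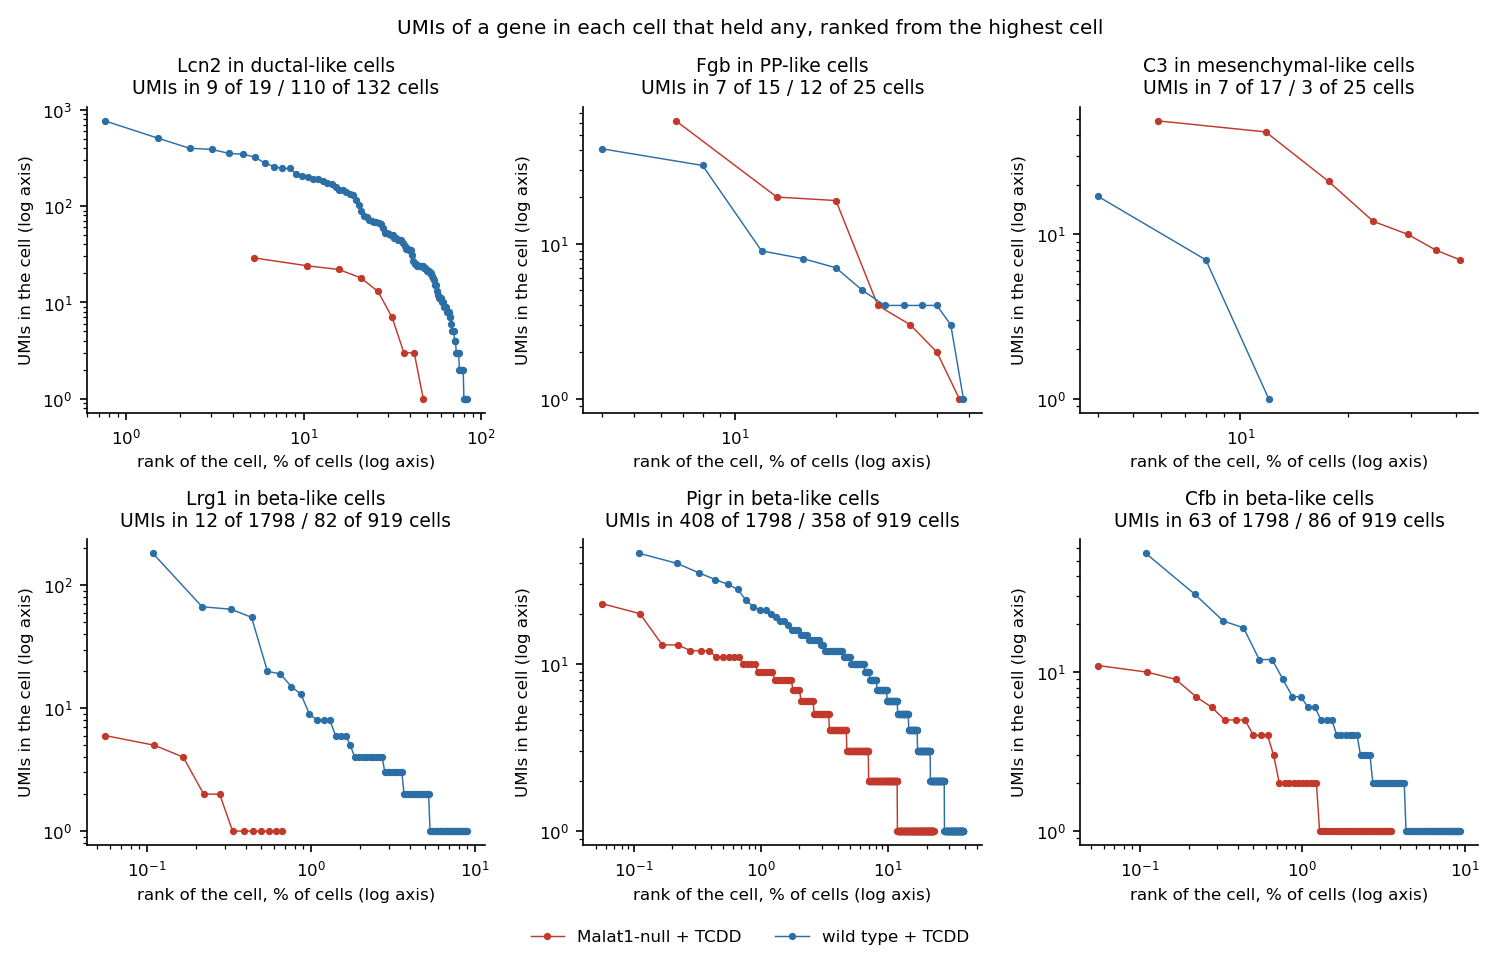
UMIs of a gene in each cell that held any (vertical, log axis) against the rank of the cell as a percent of the cells of its class and library (horizontal, log axis), Malat1-null in red and wild type in blue, for 6 gene and class pairs, with the number of positive cells above each. Lrg1 in wild-type beta-like cells falls from 183 UMIs in the highest cell, whereas Pigr spreads over 358 cells.

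Fgb (ENSMUSG00000033831; chromosome 3, 83040141 to 83049863, minus strand) was a gene of PP-like cells, the islet cells that make pancreatic polypeptide. These had 111 UMIs in 7 of 15 Malat1-null cells (193 CPM, 158 to 232) and 122 UMIs in 12 of 25 wild-type cells (120 CPM, 100 to 144). The ratio of 1.60 (1.23 to 2.09) was under the 2-fold limit, and without the highest cell of each library the levels were 85.0 and 80.0 CPM. The share of positive cells was 46.7% and 48.0%. Alpha-like cells had 43.4 and 16.7 CPM and delta-like cells 30.9 and 11.4 CPM, but 44 of 56 and 10 of 12 alpha-like UMIs, and 33 of 37 and 7 of 7 delta-like UMIs, came from 1 cell. The alpha-like cells lay mostly in a different cluster in each library, and their log2 ratio was 1.33 here, -6.37 at a minimum of 5000 UMIs and -6.40 at 10000 UMIs. Beta-like cells had 0.188 and 3.20 CPM, 17.0-fold lower in Malat1-null (10.3 to 29.7), with 128 of the 195 wild-type UMIs in 1 cell. Without the highest cell of each library the beta-like levels were 0.133 and 1.10 CPM. The log2 ratio was -4.05 here and -5.72 without the mitochondrial limit. An unnamed cluster led by Ppy, Gcg and Pyy, hormones of PP, alpha and related cells, had 145 CPM in 11 of 17 Malat1-null cells and 707 CPM in 5 of 6 wild-type cells, with 126 of 135 wild-type UMIs in 1 cell. Calb1 (calbindin) was most like Fgb, with an r of 0.96.

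Saa3 (ENSMUSG00000040026; chromosome 7, 46711998 to 46715700, minus strand) was found in almost no cells. A single wild-type macrophage-like cell held 380 of the library's 385 UMIs, and the other macrophage-like cells, 41 in Malat1-null and the rest of the 14 in wild type, held 0. Endothelial-like cells held 3 of the 4 Malat1-null UMIs. The genes most like Saa3, F13a1 and Mmp9 (r of 0.99 and 0.98), follow that 1 cell. No comparison of Saa3 between the genotypes is possible beyond these counts.

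Other genes of the acute-phase pathways were compared in beta-like cells, as measured at 10 CPM or more in a library. Of 28 other acute-phase proteins 0 were measured there; elsewhere transferrin (Trf) was highest in mesenchymal-like cells at 444 and 22.1 CPM and hepcidin (Hamp) in alpha-like cells at 177 and 20.9 CPM. Of 23 complement genes 4 were measured, with a median log2 ratio of -0.19, against 0.03 over all measured genes. Only Clu (clusterin, a complement inhibitor), at 102 and 125 CPM, could be counted, and it was not 2-fold apart. Serping1, the C1 inhibitor, was at 35.2 and 48.1 CPM, and C1qa at 26.5 and 24.4 CPM. The highest complement genes elsewhere were Clu in acinar-like cells, at 4794 and 9016 CPM, and C1qb in macrophage-like cells, at 1512 and 1029 CPM.

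The cytokine pathways had more measured genes. Of 20 genes of interleukin-6 and STAT3 signalling 11 were measured, with a median log2 ratio of 0.12, and 0 of 4 that could be counted were 2-fold apart. Cebpb, a C/EBP factor, had 178 CPM in Malat1-null and 116 CPM in wild type (ratio 1.53). Socs3, the STAT3 feedback inhibitor, stood at 12.0 and 19.9 CPM (ratio 0.605) and the receptor Lifr at 19.1 and 15.3 CPM. Il11 was highest in mesenchymal-like cells, at 2406 and 3188 CPM, as was Cebpb, at 939 and 1454 CPM. Of 20 genes of interleukin-1, TNF, interleukin-17 and NF-kB 9 were measured, with a median of 0.27, and 1 of 3 was higher. That was Nfkbia, the inhibitor of NF-kB, at 244 and 114 CPM, 2.14-fold higher in Malat1-null (2.08 to 2.20). Among all genes countable in beta-like cells 0.422% of 1659 were higher. Relb stood at 11.8 and 8.29 CPM and Il17ra at 10.7 and 7.67 CPM. In macrophage-like cells Nfkbia was at 1822 and 1426 CPM and Il1b at 722 and 169 CPM.

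Of 17 receptors, cargo and partners of the 8 proteins 4 were measured in beta-like cells (median 0.35), and 0 could be counted. The copper transporter Atp7a was at 22.2 and 12.8 CPM, the iron exporter Slc40a1 at 17.0 and 27.2 CPM and Tgfbr1 at 13.2 and 10.3 CPM. The endothelial TGF-beta co-receptor Eng, a partner of Lrg1, was at 1315 and 1174 CPM in endothelial-like cells, where Lrg1 was at 0 and 27.6 CPM. Of 6 AhR targets Tiparp was the 1 measured, with 19.6 and 17.3 CPM there and with 314 and 440 CPM in endothelial-like cells.

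In ductal-like cells 1 gene of each cytokine list was 2-fold apart, where 1.46% of all 3360 countable genes were higher and 1.31% lower. Il1rn, the interleukin-1 receptor antagonist, was at 431 and 166 CPM, 2.59-fold higher in Malat1-null (2.12 to 3.13), and was 1 of 8 genes of its list that could be counted. Cebpb was at 181 and 367 CPM, with a ratio of 0.492 (0.366 to 0.648), 1 of 5. Clusterin, at 8577 and 8660 CPM, differed by less than its counting interval (ratio 0.990, 0.951 to 1.03), in the same cells where Lcn2 was 4.32-fold lower. List medians were 0.66 for other acute-phase proteins (3 measured), 0.06 for complement (2), -0.41 for interleukin-6 and STAT3 (14), -0.24 for interleukin-1 and NF-kB (15), -0.96 for the partners (5) and -0.90 for AhR targets (2), against 0.00 over all 8553 measured genes.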

How the data were processed

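Single-cell 3′ libraries (version 3 chemistry, per the labels' protocols) of Malat1-null and wild-type islets with TCDD were used. The deposited matrices hold the authors' raw UMI counts for 6794880 barcodes each, unfiltered; Cell Ranger 4 is named per the file headers and Cell Ranger 2.1.0 and mm10 per the submitters' processing notes. Coordinates came from GENCODE, in which 32158 of 32285 identifiers were found.

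Barcodes with at least 1000 UMIs (3198 and 2166) were kept; 286 and 69 above 20% mitochondrial UMIs and 7 and 21 doublets by Scrublet (scanpy 1.11.5) were removed, so an unknown number of doublets may be left. Clustering used both libraries at once and left out the 8 genes (2000 variable genes, 30 components, Leiden resolution 1, igraph 0.11.9) and named by 17 marker lists: score at least 0.6, 3 markers at 20 CPM, no mixed hormones. These limits, among them an insulin limit raised to 25% of the highest cluster so that macrophage-like cells could be named, were set after the data had been seen. UMIs were summed per class and library and scaled by TMM (edgeR 4.0.16, R 4.3.3); there are no replicates, so no p-value is given. Intervals are exact Poisson, conditional or Clopper-Pearson ones (scipy 1.17.1). Log2 ratios add 0.5 UMIs. On simulated sums, the rule of 2-fold counted 100% of 100 genes changed 3-fold in beta-like cells and 90.0% of 100 in ductal-like cells. Of unchanged genes it counted 0 of 1460 and 0 of 3047. Sums and not cells were simulated, so these shares cannot show how the rule behaves where many UMIs come from few cells. The simulated sums were scaled by their known factor and not by TMM, so the TMM scaling was not checked. They varied by counting error only. The error rate of the rule in the real data was not tested. In beta-like cells the check does not bear on the members, none of which could be counted there.

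The members, the 6 gene lists and the markers were chosen with earlier results of these data known. Besides the members, the text names the 5 genes most like each, and of each list the 3 with the largest ratio in beta-like cells and the 2 highest in any class, not each of which is printed; Il1rn, and Cebpb and Clu in ductal-like cells, were named after their values were seen. The complement gene C5 did not match by symbol. Sequences are from RefSeq.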

Additional observations from a re-analysis of the deposited data

Results flagged for a closer look

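C3 differed between classes in the direction of its log2 ratio, Malat1-null over wild type: it was 2.84 in mesenchymal-like cells, -0.60 in beta-like cells and -2.71 in ductal-like cells, with counting intervals on different sides of no change. Fgb had 0.68 in PP-like and 1.33 in alpha-like cells and -4.05 in beta-like cells. With 1 library per group these differences between classes were not tested, and several rest on few cells (7 mesenchymal-like Malat1-null cells for C3, 1 wild-type beta-like cell with 128 UMIs for Fgb).

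Barcodes of 10 to 100 UMIs, outside all comparisons, held RNA of these genes above the limit that a count of 0 allows (1.31 CPM). C3 stood at 331 CPM in Malat1-null and 410 CPM in wild type, Cfb at 22.3 and 24.8, Cp at 23.6 and 24.4, Lcn2 at 14.8 and 37.9, Pigr at 12.7 and 12.6, and Saa3 at 3.05 and 6.10 CPM. In wild type alone Lrg1 was at 17.4 and Fgb at 3.05 CPM, against 0.873 and 0 CPM in Malat1-null. The same barcodes held the fibroblast gene Dcn at 1150 CPM in Malat1-null and 1236 CPM in wild type, against 2.39 and 1.27 CPM over all cells and 819 and 204 CPM in mesenchymal-like cells. The empty Malat1-null barcodes also held 1577 CPM of Malat1, against 0.442 CPM in the cells of that library. Where this RNA came from was not tested.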

How the results depend on the processing

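No paired analysis was possible because each group has 1 library, and no replicate could be left out. In beta-like cells the count of members that were 2-fold higher in Malat1-null was 0 under every alternative run. The count of those lower, 0 here, was 1 (Pigr) with a minimum of 20 CPM, where 0.950% of 4001 genes were lower. It was 4 (Lrg1, Cfb, Pigr and Fgb) with no CPM minimum, where 2.15% of 12989 genes were lower. With CPM taken without hormone, mitochondrial and Malat1 UMIs the count was 1 (Pigr). The share over all genes was not computed for that scaling, so nothing is read from that count. The construction of these alternatives, which let genes of lower level be counted, gives the change. Of 164 log2 ratios under alternatives outside single clusters 155 kept their sign, and 21 of 26 did within single beta-like clusters. Those outside clusters that did not were Lcn2 in beta-like cells (4 alternatives), C3 in beta-like cells (2), Fgb in alpha-like cells (2) and C3 in macrophage-like cells (1). The alternatives without a mitochondrial limit, without the highest cell of each library and within single clusters were chosen after seeing the data. With each library clustered by itself, ductal-like, acinar-like, alpha-like, delta-like, PP-like and mesenchymal-like cells gave no comparison, since not both libraries had enough named cells; the same held for mesenchymal-like, acinar-like and macrophage-like cells at 10000 UMIs. The 5 genes most like a member changed with the measure. Depth limits small classes: 3 UMIs are 10.4 CPM in Malat1-null and 0.614 CPM in wild-type ductal-like cells, and 16.3 CPM in wild-type macrophage-like cells.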
